A study of Mus musculus with 12 samples.

Results

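Polycomb repressive complex 1 (PRC1) genes of the PCGF, CBX and PHC families that lie outside the PRC1.1 complex were followed in mouse regulatory T cells (Treg), a CD4 T cell lineage marked by Foxp3 that holds immune responses in check. They are Bmi1, Pcgf2, Pcgf3, Pcgf5, Pcgf6, Cbx7, Cbx8, Phc2 and Phc3, a list of names chosen with earlier results of these data known. The list is not complete: Cbx2, Cbx6 and Phc1 are also of these families and in both deposited expression tables. All 9 were found, among 16232 genes of the in vivo table and 24421 of the in vitro table. Polyadenylated RNA was sequenced in 12 libraries, 6 groups of 2, from Treg of spleen and lymph nodes. The groups are wild-type (WT) Treg in vivo, Kdm2b conditional knockout (cKO) Treg in vivo, and each genotype in vitro, unstimulated and stimulated. The sources used here do not give the driver of the deletion, the strain, age and number of the mice, or the stimulus. Nothing in the labels says that the 2 libraries of a group came from separate animals or cultures, so p-values measure only the spread between these libraries, which may be technical.

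PRC1 places ubiquitin on histone H2A through the RING proteins Ring1 and Rnf2, and each complex holds a single PCGF protein that defines its type. Bmi1 and Pcgf2 (Mel18) mark the canonical complexes, in which a CBX protein such as Cbx7 or Cbx8 reads the methyl mark that PRC2 leaves on histone H3, and a PHC protein such as Phc2 or Phc3 polymerises and clusters the complexes. Pcgf3 and Pcgf5 form closely related variant complexes without CBX and PHC, and Pcgf6 forms a variant complex with the DNA-binding proteins Mga, Max and E2f6. Kdm2b belongs to PRC1.1, the variant complex built on Pcgf1, which it takes to unmethylated CpG islands. The 9 genes thus belong to complexes other than the one that the knockout addresses.

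Promoter sequence is shown for Phc3 and Cbx7, whose changes with stimulation passed the test below, and for Phc2 as the paralogue of Phc3. That of Bmi1, which passed the test in no comparison, is shown as well. The sequences are RefSeq's on GRCm38.p6, 5′ to 3′ on the gene's strand, within the 250 bases before an annotated start and without bases that fall in an annotated exon. Capitals mark the palindromic E-box CACGTG, a letter sequence recognised by Myc, Max and Mga. The Phc3 stretch is chr3:30969480-30969665 (minus strand), that of Phc2 is chr4:128654452-128654654 (plus strand, before the first of 3 annotated starts), that of Bmi1 is chr2:18676768-18677017 (plus strand) and that of Cbx7 is chr15:79932769-79932896 (minus strand).
Phc3: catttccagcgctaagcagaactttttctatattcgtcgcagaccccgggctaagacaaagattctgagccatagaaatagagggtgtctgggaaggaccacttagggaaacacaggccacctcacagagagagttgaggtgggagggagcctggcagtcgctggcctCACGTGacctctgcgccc
Phc2: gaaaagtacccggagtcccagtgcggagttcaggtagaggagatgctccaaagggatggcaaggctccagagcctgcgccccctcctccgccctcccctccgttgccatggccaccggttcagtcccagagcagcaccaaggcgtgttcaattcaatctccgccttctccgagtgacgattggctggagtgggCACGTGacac
Bmi1: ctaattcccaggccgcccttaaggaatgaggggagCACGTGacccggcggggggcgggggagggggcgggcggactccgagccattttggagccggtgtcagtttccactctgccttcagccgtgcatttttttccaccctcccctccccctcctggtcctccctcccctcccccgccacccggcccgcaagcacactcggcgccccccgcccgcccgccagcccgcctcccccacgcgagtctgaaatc
Cbx7: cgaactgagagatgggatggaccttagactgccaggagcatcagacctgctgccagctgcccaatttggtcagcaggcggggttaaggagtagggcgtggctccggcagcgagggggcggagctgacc
The E-box began 82 bases before the start in Phc3, 57 in Phc2 and 215 in Bmi1, and the Cbx7 window held no such letters. That window lies inside the annotated span of Cbx7 (79915807 to 79971119), so starts of the gene further upstream were not searched. Of the 13 promoter windows of the 9 genes, 5 held CACGTG, 1 each for Bmi1, Phc3, Phc2, Pcgf2 and Cbx8, which is 38.5% of the windows against 6.02% of all 32841 promoters and 9.76% of the 11002 promoters with at least 12 CpG. The other letters searched on both strands were TGANTCA (AP-1; 1 window, that of Pcgf3, against 6.75% of all promoters and 2.80% of those with at least 12 CpG), TGGAAA (NFAT core; 3 windows, Bmi1, Phc3 and Pcgf5, against 18.6% and 10.5%) and TTTNNCGC (E2F; 0 windows, against 4.28% and 8.40%). CpG numbered between 1 and 34 per window (median 16) in the 9 genes, against a median of 6 over all promoters. A window of Pcgf2 (5 CpG), Pcgf5 (4) and Phc2 (1) each had fewer than 12. The promoters with at least 12 CpG are thus not matched to all 13 windows. Such matches describe the letters only.

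The values are FPKM, fragments scaled to gene length and library size, so levels of different genes can be compared within a table. In vivo libraries summed to 461753 to 475374 FPKM, in vitro ones to 369720 to 438763, and the read depth behind them is unknown. Kdm2b, the targeted gene, had in vivo levels of 112.6 and 110.4 FPKM (WT) and 146.5 and 125.4 (cKO), with 84.9 and 94.9 against 89.8 and 97.4 unstimulated and 74.5 and 71.7 against 66.3 and 70.5 stimulated. A level over the whole gene does not show a deleted part, so it checks no label, and WT and cKO below stand for the libraries labelled so. Treg markers were present throughout, with Foxp3 between 71.5 and 696 FPKM. In vitro, both WT libraries numbered 2 stood apart with more genes at 0 (12379 and 13273, against 9102 to 9857 in the other 6), but each of the 9 genes was above 0 in every library.

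Markers of other cells differed with the genotype. The 9 B cell markers summed to 56.6 and 73.3 FPKM in WT and 18.6 and 27.5 in cKO in vivo, to 36.9 and 37.0 against 199.8 and 219.6 unstimulated, and to 53.4 and 37.8 against 168.6 and 168.8 stimulated, with Fcrla at 0 in the WT libraries numbered 2 and Cd22 at 0 in the stimulated one of them. The 5 erythroid markers reached 0.00346% of a library's FPKM at most in vivo, where Hba-a2 or Hbb-bt was at 0 in 3 of the 4 libraries. In vitro they made up 0.00260% to 0.457% in WT, where Hbb-bs and Hbb-bt were at 0 in both unstimulated libraries and Hbb-bt in stimulated library 2, and 11.7% and 1.26% in unstimulated cKO and 10.4% and 1.86% in stimulated cKO. The 7 myeloid markers summed to 20.0 to 28.5 FPKM in WT and 46.2 to 120.7 in cKO in vitro, and in vivo to 63.0 and 58.7 in WT and 39.5 and 53.2 in cKO, with Csf1r, Cd14, Itgam and Cd68 at 0 in stimulated WT library 2 and Adgre1 in unstimulated WT library 2. The 6 CD8 T and NK markers summed to 11.97 to 16.6 FPKM in WT and 17.7 to 28.8 in cKO in vitro, with Ncr1, Klrb1c and Gzma at 0 in both WT libraries numbered 2 and Cd8a in the stimulated one, and to 66.4 to 78.8 in vivo with overlap. In cKO in vitro, Lyz2 held most of the myeloid sum (32.7 to 76.1 FPKM) and Nkg7 most of the CD8 T and NK sum (11.1 to 20.0 FPKM). Not every marker followed, as Fcer1g and Cd8b1 overlapped between the genotypes in vitro. In vivo, Foxp3 was at 106.61 and 105.83 FPKM in WT and higher in cKO, at 113.86 and 117.25. In vitro it was lower in cKO, at 71.5 and 82.6 FPKM unstimulated against 189 to 194 in WT. Stimulated, it was at 238 and 268 in cKO against 529 to 696 in WT. The other Treg markers did not all go that way. Ctla4 was lower in cKO in both settings. Ikzf2 was higher, at 76.8 and 69.4 against 38.9 and 68.3 unstimulated and 86.3 and 93.8 against 57.2 and 72.9 stimulated. Il2ra was higher unstimulated and overlapped stimulated, and Tnfrsf18 overlapped unstimulated and was lower stimulated. B cell markers were thus lower in cKO in vivo and higher in cKO in vitro. The part of these cells in the results on the 9 genes was not tested. In bulk RNA, fewer cells of a type and less RNA per cell cannot be told apart.

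**Figure D1:**
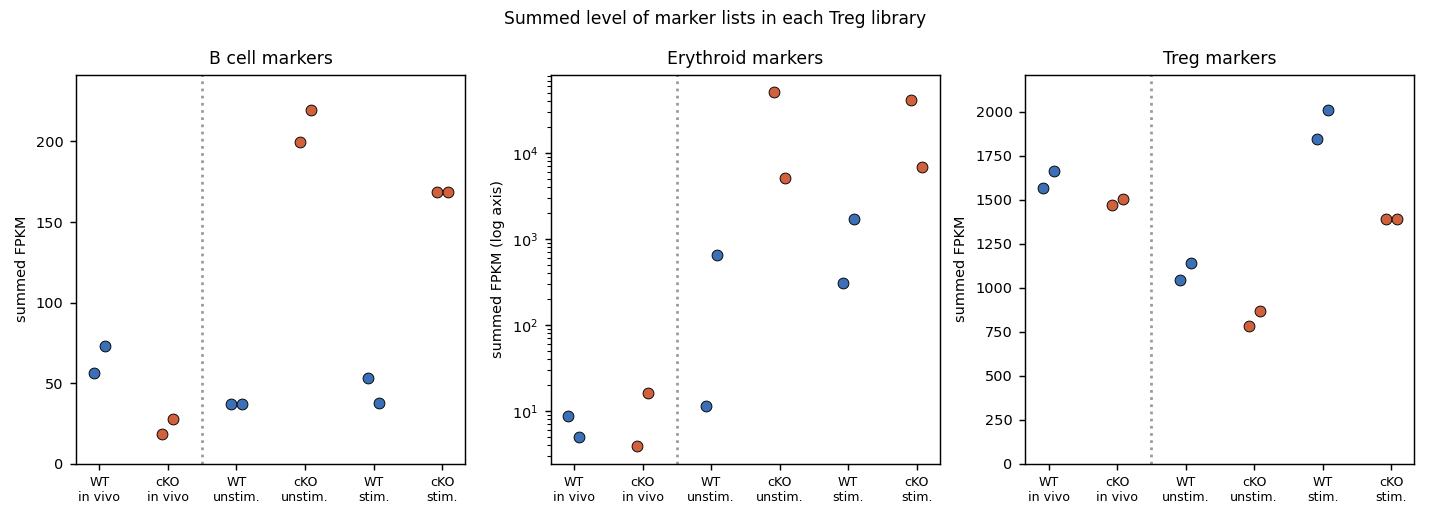
Summed FPKM of B cell, erythroid (log axis) and Treg markers in each library, by group, with WT in blue and cKO in orange. B cell markers lie below WT in cKO in vivo and above WT in cKO in vitro, where the cKO libraries sum to between 168.6 and 219.6 FPKM against 36.9 to 53.4 in WT.

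Among the 9 genes, Phc2 and Cbx7 were the most abundant outside stimulated culture and Pcgf2 had the lowest mean in every group. In WT in vivo the order of mean levels was Phc2 (52.6 FPKM), Cbx7 (43.3), Pcgf5 (17.8), Phc3 (16.5), Bmi1 (12.3), Cbx8 (7.42), Pcgf6 (7.17), Pcgf3 (5.18) and Pcgf2 (2.2). The libraries of the neighbours Pcgf5 and Phc3, and of Cbx8 and Pcgf6, overlapped, and the other neighbours did not. In the other 5 groups the libraries of the first 2 genes in the order overlapped. In stimulated cells Phc3 moved to the second place, at 44.0 FPKM in WT and 45.2 in cKO, overlapping with Phc2 (49.7 and 51.5). Among PCGF genes, Pcgf5 was the highest in all 6 groups.

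**Figure D2:**
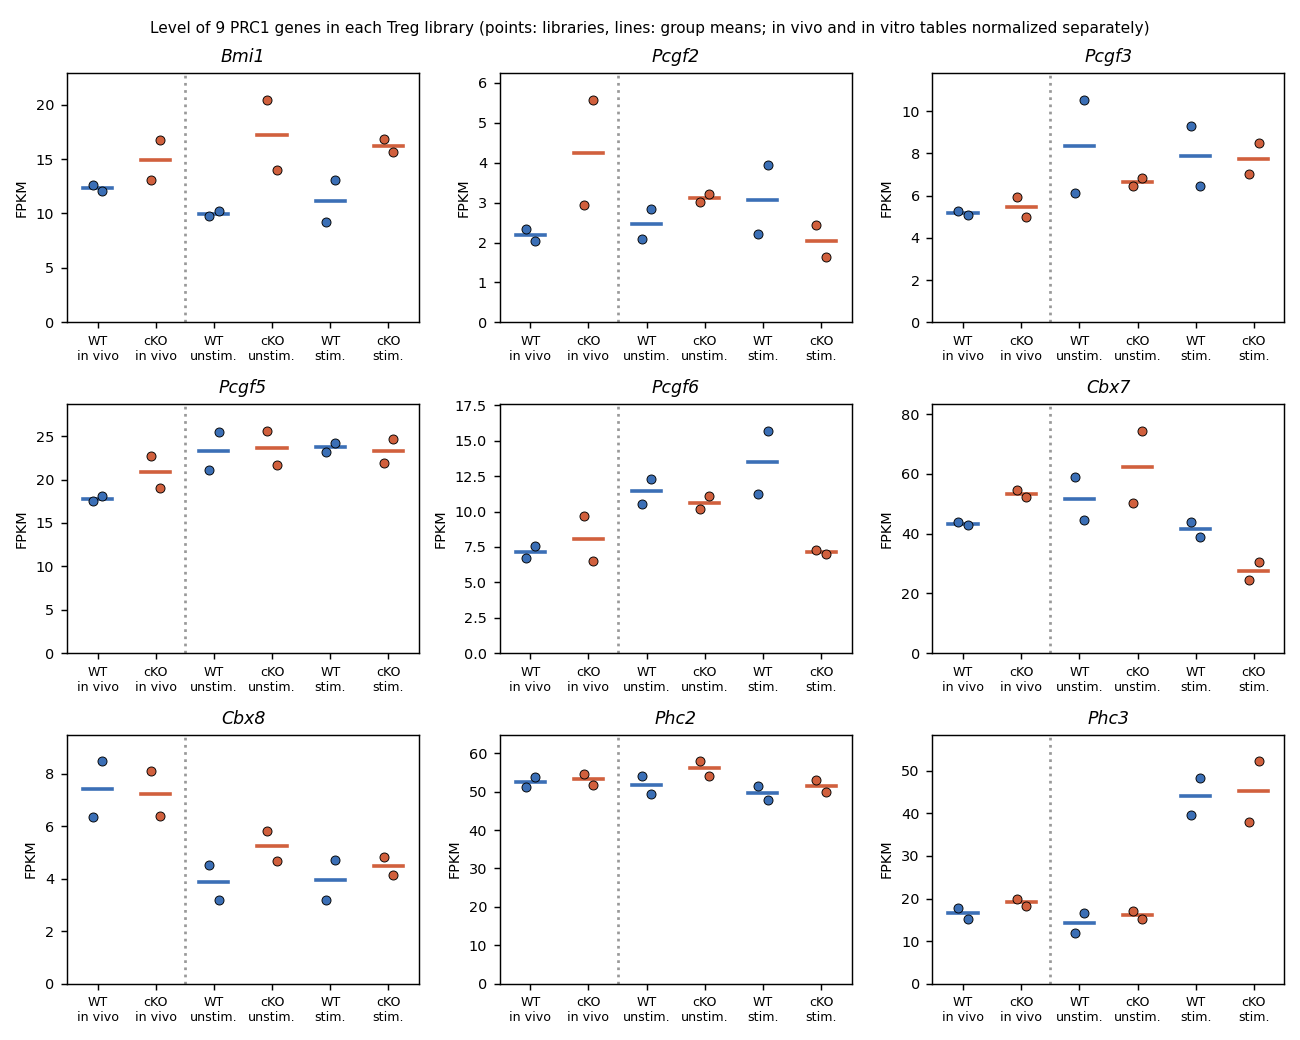
FPKM of each of the 9 genes (y axes, from 0) in the 6 groups, with a point for each library, a line at the group mean, WT in blue and cKO in orange. Phc3 lies between 38.1 and 52.2 FPKM in the 4 stimulated libraries and at or below 19.8 in the other 8, while Phc2 stays between 47.9 and 57.9.

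Each table was tested with limma on log2(FPKM + 1) over every gene averaging 1 FPKM or more, which all 9 genes did in both tables. A call means an adjusted p (Benjamini-Hochberg, over the whole table) under 0.05. Fold changes on this scale understate the change of low genes. Between the genotypes, 0 of the 9 genes were called in vivo, where 0.374% of 10415 genes were called, 0 unstimulated (0.0747% of 10710) and 0 stimulated (0.0187%). At an unadjusted p under 0.05, limma gave 2, 1 and 2 of them, where 13%, 6.56% and 14.1% of all genes had such a p. With stimulation, 1 of 9 was called in WT, Phc3, higher, where 2.43% of all genes were called (1.61% higher and 0.822% lower). In cKO 2 were called, Phc3 higher and Cbx7 lower, where 4.58% of all genes were (2.08% higher and 2.49% lower). Over the mean of both genotypes Phc3 was again called higher and Cbx7 lower, where 12.4% of all genes were called (5.42% higher and 7% lower). The balance of all calls depends on the scaling: the higher share was 45.5% in cKO and 43.6% over both genotypes as deposited, and 68.1% and 58.3% with median-of-ratios scaling, 61.7% and 55.7% with quantile normalization and 60.1% and 62.1% with haemoglobin genes removed. Phc3 and Cbx7 kept their directions under each of these scalings. The interaction of genotype and stimulation called 0 of the 9 and 0% of all genes, with 2 of the 9 at an unadjusted p under 0.05 (3.55% of all genes).

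**Figure D3:**
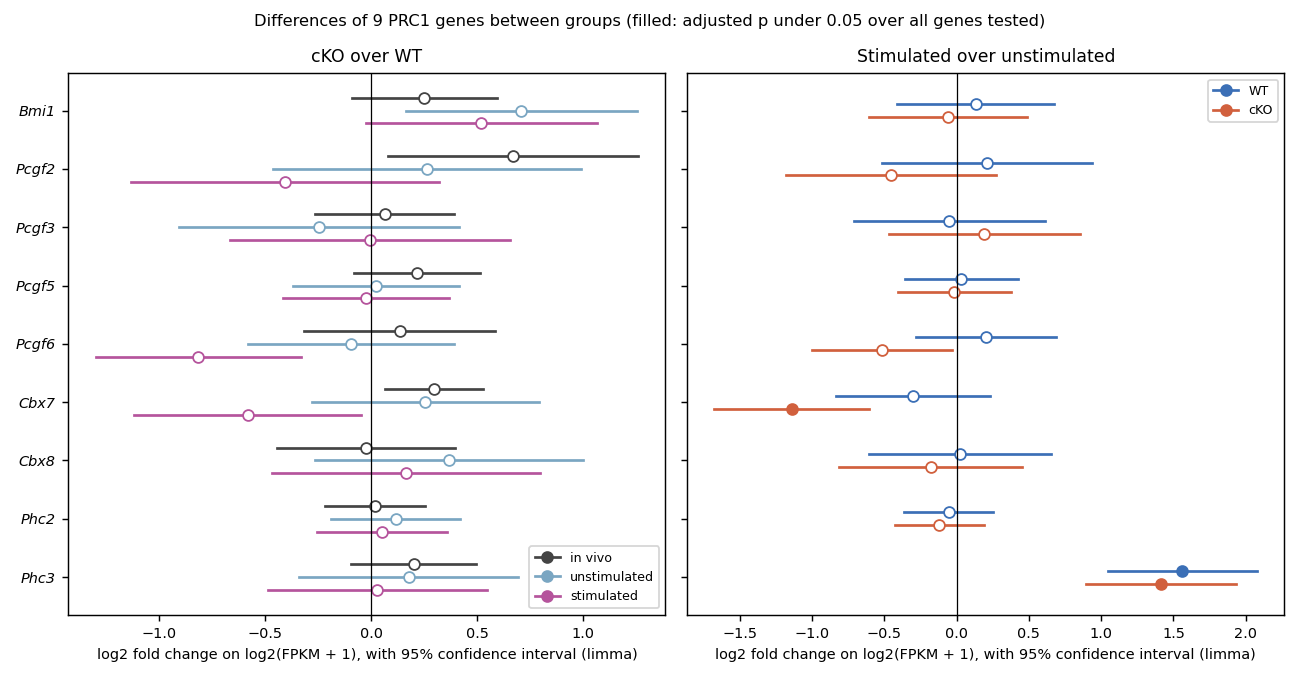
Log2 fold change on log2(FPKM + 1) with limma's 95% confidence interval for each gene, cKO over WT at left and stimulated over unstimulated at right. Filled points passed an adjusted p under 0.05, which Phc3 did in both genotypes (1.56 and 1.41) and Cbx7 in cKO (-1.14).

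The polyhomeotic genes parted on stimulation. Phc3 (chromosome 3, 30899371 to 30969415, GRCm38, protein coding), whose protein carries the SAM domain through which PHC proteins polymerise, had 11.97 and 16.7 FPKM in unstimulated WT cells and rose to 39.6 and 48.3 in stimulated ones. The cKO cells had 17.0 and 15.2 FPKM unstimulated and 38.1 and 52.2 stimulated. Each stimulated library was above each unstimulated one. Phc3 rose by a log2 fold change of 1.56 in WT (SE 0.22, 95% interval 1.05 to 2.08, limma adjusted p = 0.0145) and of 1.41 in cKO (SE 0.22, 95% interval 0.90 to 1.93, adjusted p = 0.0176), and by 1.49 over both genotypes (SE 0.16, adjusted p = 0.00164). The difference between the 2 responses was -0.15 (95% interval -0.88 to 0.58, adjusted p = 0.999).

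The Phc3 rise over both genotypes was called whichever of the 8 libraries was left out (1.38 to 1.60, adjusted p between 0.00320 and 0.0122). Within WT, limma's adjusted p was 0.0550 without unstimulated library 1 and 0.0806 without stimulated library 2, and within cKO it lay between 0.0855 and 0.177 without each of the 4 cKO libraries in turn, in fits that called 0.112% to 0.743% of all genes. With both cKO libraries numbered 1 left out, which held the most erythroid RNA, Phc3 had 1.71 in cKO (adjusted p = 0.303) and 1.64 over both genotypes (adjusted p = 0.0298). Without both WT libraries numbered 2 it had 1.65 in WT (adjusted p = 0.0366). In vivo Phc3 stood at 17.8 and 15.3 FPKM in WT and 19.8 and 18.4 in cKO, near its unstimulated level, though the tables were normalized separately.

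Phc2 (chromosome 4, 128654702 to 128752881), the gene with the highest mean in 4 of the 6 groups, stayed near the same level. Its 12 libraries lay between 47.9 and 57.9 FPKM with a median of 52.4. The largest of its 5 differences between groups was -0.12 on the log2 scale (stimulated over unstimulated in cKO, 95% interval -0.43 to 0.19, adjusted p = 0.664). A scaling factor for the whole library does not change the ratio of Phc3 to Phc2 within it. That ratio was 0.222 and 0.338 in unstimulated WT and 0.294 and 0.281 in unstimulated cKO. After stimulation the ratio reached 0.769 and 1.01 in WT, and 0.717 and 1.05 in cKO cells, so the 4 stimulated libraries lay above the 4 unstimulated ones and above the in vivo range of 0.283 to 0.362.

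Of the CBX genes tested, Cbx7 was the one called lower with stimulation in cKO cells. Cbx2, which is not among the genes followed, had a log2 fold change of -1.10 there. Its adjusted p of 0.0516 (limma) was just above the threshold, so the fall was not particular to Cbx7. Cbx8 (-0.18), Cbx6 (-0.17) and Cbx3 (0.27) were not called in this contrast. Cbx7 (chromosome 15, 79915807 to 79971119), a chromodomain reader of the H3 methyl mark, was at 50.4 and 74.5 FPKM in unstimulated cKO and at 24.3 and 30.5 in stimulated cKO, without overlap. The log2 fold change was -1.14 (SE 0.23, 95% interval -1.68 to -0.61, adjusted p = 0.0385). In WT it was at 58.9 and 44.5 FPKM unstimulated and 44.0 and 38.7 stimulated, a change of -0.30 that did not pass (95% interval -0.84 to 0.23, adjusted p = 0.508). The 2 responses differed by -0.84 (95% interval -1.59 to -0.08), which has an unadjusted p of 0.0339 and an adjusted p of 0.999, so a difference between the genotypes in this response was not called. Over both genotypes Cbx7 fell by 0.72 on the log2 scale (SE 0.16, adjusted p = 0.0285).

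The calls of Cbx7 depended on single libraries. Within cKO the adjusted p was 0.0689 and 0.284 without unstimulated library 1 and 2, and 0.259 and 0.154 without stimulated library 1 and 2 (log2 fold change -1.42 to -0.86). It was 0.0519 with median-of-ratios scaling, which moved the median of all genes in this contrast from -0.14 to -0.02, and 0.0331 with haemoglobin genes removed and libraries set to a common sum. Without both cKO libraries numbered 1 it was 0.387 (log2 fold change -1.26). Over both genotypes the adjusted p ranged from 0.0278 to 0.110 when a library was left out, above 0.05 without unstimulated cKO library 2, either stimulated cKO library, unstimulated WT library 1 or stimulated WT library 2. Cbx7 shares 100 annotated exonic bases with Apobec3 on the other strand, and the sources used here do not state whether strand was used in counting.

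Between the genotypes Cbx7 lay on opposite sides in vivo and after stimulation. In vivo, levels of 43.8 and 42.8 FPKM in WT faced 54.6 and 52.1 in cKO, a log2 fold change of 0.30 (95% interval 0.06 to 0.53, adjusted p = 0.293). After stimulation the cKO libraries lay below WT, at -0.58 (95% interval -1.12 to -0.05, adjusted p = 0.319), and unstimulated the groups overlapped (0.25, adjusted p = 0.934). Neither difference passed the test. Without the second cKO library in table order, the in vivo value was 0.33 with an adjusted p of 0.0356, in a fit that called 19.2% of all genes and took its spread from the WT libraries alone.

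Cbx8 (chromosome 11, 119036305 to 119040969), a second chromodomain reader, was at 3.17 to 8.47 FPKM over the 12 libraries. Its largest difference was between the unstimulated groups, with WT at 4.52 and 3.20 FPKM and cKO at 5.81 and 4.66, a log2 fold change of 0.37 (95% interval -0.27 to 1.00, adjusted p = 0.914). The cKO libraries were above WT there, by less than the test could separate. The in vivo groups overlapped, WT at 6.36 and 8.47 FPKM, cKO at 8.09 and 6.39 (-0.03, 95% interval -0.45 to 0.39, adjusted p = 0.960).

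Bmi1 (chromosome 2, 18677018 to 18686629), the PCGF subunit of canonical PRC1 best known as a repressor of the Cdkn2a locus, lay higher in cKO in each of the 3 settings without being called. In vivo the WT libraries read 12.6 and 12.03 FPKM and the cKO libraries 13.1 and 16.8. Unstimulated it was at 9.74 and 10.2 in WT and 20.4 and 14.0 in cKO, and stimulated at 9.25 and 13.1 in WT and 16.8 and 15.6 in cKO. In no setting did the genotypes overlap. Both cKO libraries lay above both WT libraries in 21.5%, 17.8% and 18.5% of all genes in these comparisons. They lay below in 25.8%, 16.6% and 29.8%. The share of genes above in all 3 settings is not given. The log2 fold change was 0.25 in vivo (95% interval -0.09 to 0.59, adjusted p = 0.495), 0.71 unstimulated (0.16 to 1.25, adjusted p = 0.577) and 0.52 stimulated (-0.03 to 1.06, adjusted p = 0.375).

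The B cell marker sum moved with Bmi1 in vitro, where both were higher in cKO, and against it in vivo, where the sum was lower in cKO. The unstimulated cKO library with the highest Bmi1 level, 20.4 FPKM, was also the one with 11.7% erythroid FPKM. The other, with 1.26% erythroid FPKM and the higher B cell sum (219.6 FPKM), had Bmi1 at 14.0. In stimulated cKO, Bmi1 was at 16.8 FPKM beside 10.4% erythroid FPKM and at 15.6 beside 1.86%. A part of other cells in the Bmi1 levels was not tested. Without both cKO libraries numbered 1, Bmi1 had 0.45 unstimulated and 0.47 stimulated on the log2 scale. Leaving out 1 library at a time gave 0.08 to 0.42 in vivo, 0.45 to 0.97 unstimulated and 0.29 to 0.75 stimulated, with no call. Stimulation did not separate the Bmi1 groups in either genotype.

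Pcgf2 (chromosome 11, 97688823 to 97700497), the alternative canonical PCGF subunit, was the lowest of the 9 genes at 1.63 to 5.57 FPKM. In vivo, levels of 2.35 and 2.05 FPKM in WT faced 2.93 and 5.57 in cKO. The cKO libraries lay above WT but far apart from each other, and the log2 fold change of 0.67 (95% interval 0.08 to 1.26) had an adjusted p of 0.336. Without the first cKO library in table order, it was 1.04 with an adjusted p of 0.0116, in a fit that called 4.07% of all genes with the spread of the WT libraries alone, and without the second it was 0.30. In vitro the Pcgf2 libraries lay between 1.63 and 3.94 FPKM.

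The subunits of the CBX-free variant complexes gave no call. Pcgf5 (chromosome 19, 36348309 to 36460970) lay between 17.5 and 25.7 FPKM in all 12 libraries. Its largest difference was in vivo, WT at 17.5 and 18.1 FPKM and cKO at 22.7 and 19.1 (0.21, 95% interval -0.08 to 0.51, adjusted p = 0.502). Its 4 in vitro group means spanned 0.03 on the log2 scale, the smallest span of the 9 genes. Pcgf3 (chromosome 5, 108461232 to 108506976), its close relative, lay between 5.0 and 10.53 FPKM. The widest Pcgf3 difference, -0.25 between unstimulated cKO and WT (95% interval -0.91 to 0.41, adjusted p = 0.954), came with WT libraries at 6.13 and 10.53 FPKM on both sides of the cKO libraries at 6.45 and 6.83. Pcgf5 shares 60 annotated exonic bases with F530104D19Rik on the other strand.

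Pcgf6 (chromosome 19, 47033617 to 47050906), the PCGF subunit of the complex with Mga and E2f6, had its lowest in vitro levels in stimulated cKO cells. After stimulation, levels of 11.2 and 15.7 FPKM in WT faced 7.27 and 6.99 in cKO, without overlap. The difference of -0.82 on the log2 scale (SE 0.21, 95% interval -1.30 to -0.33) had the smallest unadjusted p of the 9 genes between the genotypes, 0.00478, and an adjusted p of 0.171. Unstimulated, WT had 10.6 and 12.3 FPKM and cKO 10.2 and 11.1, which overlapped. Pcgf6 changed with stimulation by 0.21 in WT (adjusted p = 0.631) and by -0.51 in cKO (adjusted p = 0.209), and these differed by -0.72 (unadjusted p = 0.0421, adjusted p = 0.999). None of these was called, and leaving out 1 library at a time gave adjusted p-values of 0.0614 to 0.718 for the stimulated genotypes.

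Over the 9 genes, cKO exceeded WT by a median log2 difference of 0.20 in vivo and 0.18 unstimulated, and stood at -0.01 stimulated, beside medians over all genes tested of -0.02, 0.02 and -0.05. In vivo, both cKO libraries lay above both WT libraries for 5 of the 9 genes (Bmi1, Pcgf2, Pcgf5, Cbx7 and Phc3) and below for 0, against 21.5% above and 25.8% below in all genes. Unstimulated this held for 4 above (Bmi1, Pcgf2, Cbx8 and Phc2) and 0 below, against 17.8% and 16.6% of all genes. Stimulated, Bmi1 lay above and Cbx7 and Pcgf6 below, against 18.5% and 29.8%. With stimulation the median of the 9 genes was 0.03 in WT and -0.12 in cKO, beside -0.04 and -0.14 over all genes. In WT, 1 gene (Phc3) lay above and 1 (Cbx7) below without overlap, against 18.8% and 22.9% of all genes, and in cKO 2 lay above (Pcgf3 and Phc3) and 4 below (Pcgf2, Pcgf6, Cbx7 and Phc2), against 20.7% and 44.1%.

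The share of each gene in its family within a library is not changed by a scaling factor for the whole library. Phc3 made up 14.0% and 19.6% of the summed FPKM of Phc1, Phc2 and Phc3 in unstimulated WT and 18.9% and 17.4% in unstimulated cKO. The stimulated libraries had shares of 35.7% and 43.6% (WT) and of 35.1% and 44.5% (cKO). The sum of the PHC genes, which unlike the shares depends on scaling, lay between 85.4 and 90.4 FPKM unstimulated. Stimulated it lay between 108.5 and 117.3, without overlap, while Phc2 kept its level.

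The ratio of Cbx7 to Cbx8, the chromodomain readers among the 9 genes, was 13.03 and 13.91 in unstimulated WT, 8.68 and 16.0 in unstimulated cKO, 13.86 and 8.20 in stimulated WT, and 5.04 and 7.36 in stimulated cKO. Both stimulated cKO libraries lay below the other 6 in vitro libraries. The in vivo ratios of 5.05 to 8.15 overlapped between the genotypes.

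Bmi1 made up 16.6% and 16.3% of the summed PCGF FPKM in unstimulated WT, 28.3% and 21.3% in unstimulated cKO, 14.9% and 20.0% in stimulated WT and 27.6% and 25.7% in stimulated cKO. The in vivo shares of Bmi1 overlapped, at 24.9% and 23.9% in WT and 21.6% and 29.0% in cKO. Pcgf5 held 33.0% to 40.9% in every library. Pcgf1, the subunit of PRC1.1, held 1.69% and 2.83% in the WT libraries numbered 2 and 5.31% to 15.7% in the other 10.

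**Figure D4:**
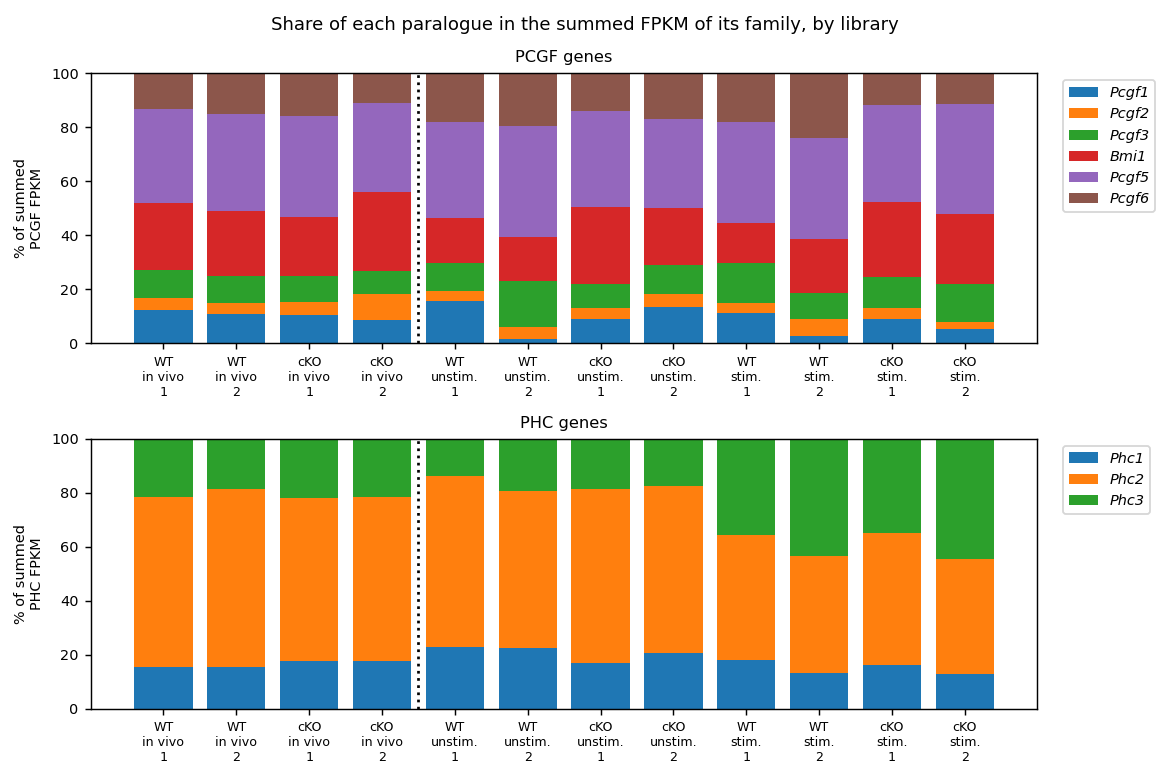
Share of each paralogue (y axis, percent of the summed FPKM of its family) in each of the 12 libraries, for PCGF and PHC genes; the dotted line parts the in vivo from the in vitro table. The Phc3 share is 35.1% to 44.5% in the 4 stimulated libraries against 14.0% to 19.6% in the unstimulated ones.

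Other Polycomb genes give the setting. Of all genes, 0.374% were called between the genotypes in vivo, 0.0747% unstimulated and 0.0187% stimulated. With stimulation 2.43% were called in WT, 4.58% in cKO and 12.4% over both genotypes. The calls over both genotypes below, 2 of 22 genes outside PRC1.1 and 1 of 10 of PRC1.1, are near that last share. The catalytic partners Ring1 and Rnf2 were not called in any contrast, with Rnf2 at 32.9 to 48.1 FPKM and Ring1 at 5.72 to 16.8. Of 22 tested genes among 24 others of PRC1 outside PRC1.1, 0 were called between the genotypes. Fbrs was called lower with stimulation in cKO (-0.68, adjusted p = 0.0452) and Fbrs and the chromodomain gene Cbx2 over both genotypes (-0.43, adjusted p = 0.0346, and -0.79, adjusted p = 0.0281), with a list median of -0.08 beside -0.10 for all genes. Cbx2 was at 5.96 and 4.76 FPKM in unstimulated WT and 3.32 and 3.78 stimulated, and in cKO at 6.08 and 7.24 against 2.11 and 3.06. Within cKO its change was -1.10, just short of a call (limma adjusted p = 0.0516). Of 10 tested PRC1.1 genes, Bcor was called higher in cKO in vivo (1.32, limma adjusted p = 0.0373). It was also higher in cKO in vitro without being called, by 1.335 unstimulated and 1.06 stimulated (limma adjusted p = 0.143 and 0.139). Kdm2b was called lower with stimulation over both genotypes (-0.37, limma adjusted p = 0.0386).

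Of 12 tested PRC2 genes, the methyltransferase gene Ezh2 and its partner Jarid2 were called higher with stimulation in both genotypes, Ezh2 by 2.49 in WT and 2.17 in cKO, and Phf1 lower in cKO (-1.17, adjusted p = 0.0232) and over both genotypes. For these and the genes below, the shares of all genes called were 2.43% in WT, 4.58% in cKO and 12.4% over both genotypes. Usp21 was the gene called among 8 tested for removal of H2A ubiquitin, lower with stimulation in cKO (-0.82, adjusted p = 0.0493) and over both genotypes. Over both genotypes, 1 gene of 8 is near the share over all genes. Among known targets of canonical PRC1, 3 of 10 passed the filter on low values in vivo and 4 in vitro. Hoxb4 was called lower with stimulation over both genotypes (-1.13, adjusted p = 0.0264). It was at 6.59 and 10.9 FPKM in unstimulated WT and 4.29 and 2.02 stimulated, and at 4.12 and 4.40 against 1.95 and 1.29 in cKO. No gene of this target list was called between the genotypes.

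Among the genes followed, Phc3 and Cbx7 were the 2 whose in vitro group means spanned at least 1 on the log2 scale, 1.59 and 1.14. Among all genes tested in vitro, Ncoa3 (Pearson r = 0.989), a coactivator of nuclear receptors, Nin (0.989), which encodes the centrosomal protein ninein, and Bbx (0.987) had the pattern most like Phc3 over the 8 in vitro libraries. Those most like Cbx7 were Ypel2 (0.986), Ip6k1 (0.978), an inositol hexakisphosphate kinase gene, and Ssbp1 (0.977), which encodes the mitochondrial single-stranded DNA-binding protein. These correlations describe 8 libraries that share groups and library size, with no test. Ncoa3 was at 48.1 to 64.0 FPKM unstimulated and 95.03 to 119.8 stimulated. Ypel2 was at 5.83 and 7.58 FPKM in unstimulated cKO and 2.40 and 3.12 in stimulated cKO, and at 7.16 and 4.99 against 4.46 and 3.97 in WT.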

How the data were processed

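Polyadenylated RNA of mouse Treg was measured in 12 samples, grouped by their titles. The values are FPKM as the authors deposited them, in a table of 4 in vivo and a table of 8 in vitro samples. The tools StringTie 2.1.1 and HISAT2 2.2.1 and the builds hg19 and mm10 appear, per the submitters' processing notes, without their roles. The annotation and the use of strand in counting are not given in the sources used here. In vivo columns carry no replicate number, so library 1 and 2 there follow the table's order. In vitro, 4 further columns of no sample in the series were not used. Entrez numbers were matched to RefSeq symbols for 16196 of 16232 in vivo genes; all 9 genes matched. Gene coordinates are from GENCODE M21 (GRCm38).

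FPKM are not counts and low values showed no steps of whole reads, so depth is unknown and no count model or interval was used. Each table was fitted whole with limma 3.58.1 in R 4.3.3 on log2(FPKM + 1), with an intensity trend, over genes averaging 1 FPKM or more (10415 in vivo, 10710 in vitro), and p-values were adjusted over all of them. The 8 in vitro samples shared 1 model. On simulated data, limma called 74.6%, 92.5% and 98.5% of genes changed by 2, 4 and 8-fold in the in vivo design (10415 genes), and 40.3%, 86.6% and 81.8% in the WT stimulation contrast (10710 genes). The changed genes were drawn from those with a mean log2(FPKM + 1) above log2(5), which left out low genes such as Pcgf2. No in vitro genotype contrast was simulated. The genes named are the 9, the called genes of the lists, and the 3 genes most like each of the 9 whose in vitro group means span at least 1. The members and lists were chosen with earlier results of these data known. Alternatives were a pseudocount of 0.1, no filter, a floor of 5 FPKM, median-of-ratios and quantile scaling, removal of haemoglobin genes with a common sum, no trend, only the samples compared, a replicate block, and each library left out. Some genes are not reported here.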

Additional observations from a re-analysis of the deposited data

Results flagged for a closer look

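Cbx7 lay on opposite sides of WT in 2 settings: both cKO libraries were above both WT libraries in vivo (log2 fold change 0.30) and below them after stimulation in vitro (-0.58). The difference between these values was not tested, since the tables were normalized separately, and neither value was called by limma.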

How the results depend on the processing

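The called changes of Phc3 and Cbx7 with stimulation kept their direction under each alternative run, but not all calls held. With no filter on low values, 0 of the 9 genes were called with stimulation in WT, 0 in cKO and 1 over both genotypes, where more genes enter the adjustment and 0.533%, 1.07% and 4.52% of them were called. With only the samples compared, 0 were called in WT (0.324% of all genes); with median-of-ratios scaling 1 in cKO (4.23%); with no intensity trend 1 in cKO (1.93%) and 1 over both genotypes (9.74%). In an alternative chosen after seeing the data, without both cKO libraries numbered 1, 0 were called in WT, 0 in cKO and 1 over both genotypes (0.302%, 0.00945% and 1.21% of all genes). Leaving out 1 library at a time gave 0 to 1 called genes between the genotypes in vivo (0.164% to 19.2% of all genes), 0 to 1 with stimulation in WT (0.881% to 9.02%), 0 to 2 in cKO (0.112% to 6.16%) and 1 to 2 over both genotypes (4.23% to 21.1%); the lone library of an arm is assumed to vary like the other groups. The causes of these changes in the calls were not tested.

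Among the printed differences of the 9 genes, sign changes touched only values that were not called. Pcgf3 between the unstimulated genotypes was 0.10 without both WT libraries numbered 2, Phc2 with stimulation in cKO 0.016 with median-of-ratios scaling, and the Phc3 interaction 0.15 without both cKO libraries numbered 1. With 1 library left out, Pcgf3 unstimulated ranged from -0.59 to 0.10, Pcgf6 with stimulation in WT from -0.020 to 0.43, Cbx7 unstimulated from -0.023 to 0.53, Cbx8 in vivo from -0.21 to 0.16 and the Phc3 interaction from -0.37 to 0.076. The other printed differences of the 9 genes kept their direction. Genes of the other lists were not compared across alternatives.

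In vitro, same-numbered libraries went together in their deviations within a genotype (correlation 0.42 for cKO and 0.24 for WT) but not between genotypes (-0.14 to 0.06), and the labels tie no number to an animal or day. With a replicate block shared by both genotypes, 1 of the 9 genes was called with stimulation in WT, 2 in cKO and 2 over both genotypes, as without it (Phc3 adjusted p = 0.0132 and 0.0151, Cbx7 0.0475 in cKO). A replicate block within each genotype, added after seeing the data, gave the same counts of 1, 2 and 2 (Phc3 0.0117 and 0.0133, Cbx7 0.0121 in cKO), with 468, 839 and 2072 genes called over all, against 260, 490 and 1330 without a block. The unknown depth leaves the low genes, Pcgf2 above all, with no counting error.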
